A study of Mus musculus with 12 samples.

Results

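The type I interferon antiviral genes studied here are 36 genes that cells switch on when they sense interferon, taken as a list of symbols and matched to the rows of the count table by Ensembl identifier. All 36 were found among the 43432 genes of the table, and all 36 passed the filter on low counts that left 15449 genes for testing. The RNA came from tumours of the mouse pancreatic cancer line CR705, 6 from WT cells and 6 from cells labelled AHRKO, a knockout of the aryl hydrocarbon receptor by its label, which is a transcription factor that binds small aromatic ligands. No sample label names a compound, although other protocol texts speak of compounds added to cultures. All 12 samples were taken as untreated tumours because the RNA protocol names tumours. The labels do not give the host's strain, age or sex, nor whether the AHRKO line is 1 clone, nor whether each sample is a separate animal. The p-values therefore measure the spread between these samples, which may be technical in part.

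Type I interferons are secreted when a cell senses foreign or misplaced nucleic acid. They bind the receptor pair IFNAR1 and IFNAR2, whose kinases JAK1 and TYK2 activate a transcription factor complex that holds STAT2 and IRF9. The complex binds the interferon-stimulated response element (ISRE) in the promoters of antiviral genes. Interferon gamma, made mainly by T and NK cells, acts through another receptor and a different DNA element, and raises many of the same genes. In tumours such genes can be transcribed by cancer cells, leukocytes or stromal cells, and in bulk RNA a larger number of cells of a type and more RNA per cell cannot be told apart.

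Library totals ran from 19293174 to 35881469 counts in WT and from 14772343 to 19944273 in AHRKO. Ahr itself measured 101 to 126 CPM in WT and 62.5 to 143 CPM in AHRKO, with a log2 fold change of -0.13 ± 0.17 (adjusted p = 0.606), so its transcript level does not check the knockout label. AHRKO replicate 1 stood apart. Its summed leukocyte markers (14 genes, among them Ptprc) were at 2647 CPM, where AHRKO replicates 2 to 6 held 423 to 964 and WT 235 to 462, and its ductal epithelial markers (8 genes, among them Krt19) were at 691 CPM, where those replicates held 2956 to 4755 and WT 3419 to 4810. The labelled tissue is pancreas, and of the acinar markers Cela2a and Amy2a5 were at 0 and Prss2, Cpa1, Pnlip, Ctrb1 and Cel stayed under 1 CPM in every library, while Cela1 was at 7.54 to 49.4 CPM. Values below are CPM, read counts scaled to a common library total with edgeR's TMM factors, and where 3 values are given per group they are the lowest, the median and the highest of 6 libraries. Called means an adjusted p under 0.05 in edgeR's quasi-likelihood test over all tested genes.

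Most of the antiviral genes were higher in AHRKO tumours. Of the 36, 30 rose, none fell and 6 were not called, while 15.9% of all tested genes were called higher and 13.6% lower. The fitted change was positive for all 36, with a median log2 fold change of 1.59 against 0.02 over all tested genes, and reached from 0.22 for Adar to 2.79 for Oas3. Among the 30 that rose the fold ran from 1.42 to 6.90 with a median of 3.40, and 7 genes exceeded 4-fold: Oas3, Mx1, Zbp1, Rtp4, Bst2, Cmpk2 and Parp14. In 11 genes every AHRKO library lay above every WT library, a pattern found in 6.03% of all tested genes. No antiviral gene showed the opposite pattern, which 7.35% of tested genes did. Without AHRKO replicate 1 the same 30 genes were called, and the median log2 fold change of the 36 was 1.42. In the plot of CPM by library, the groups separate for some genes and interleave for others.

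**Figure D1:**
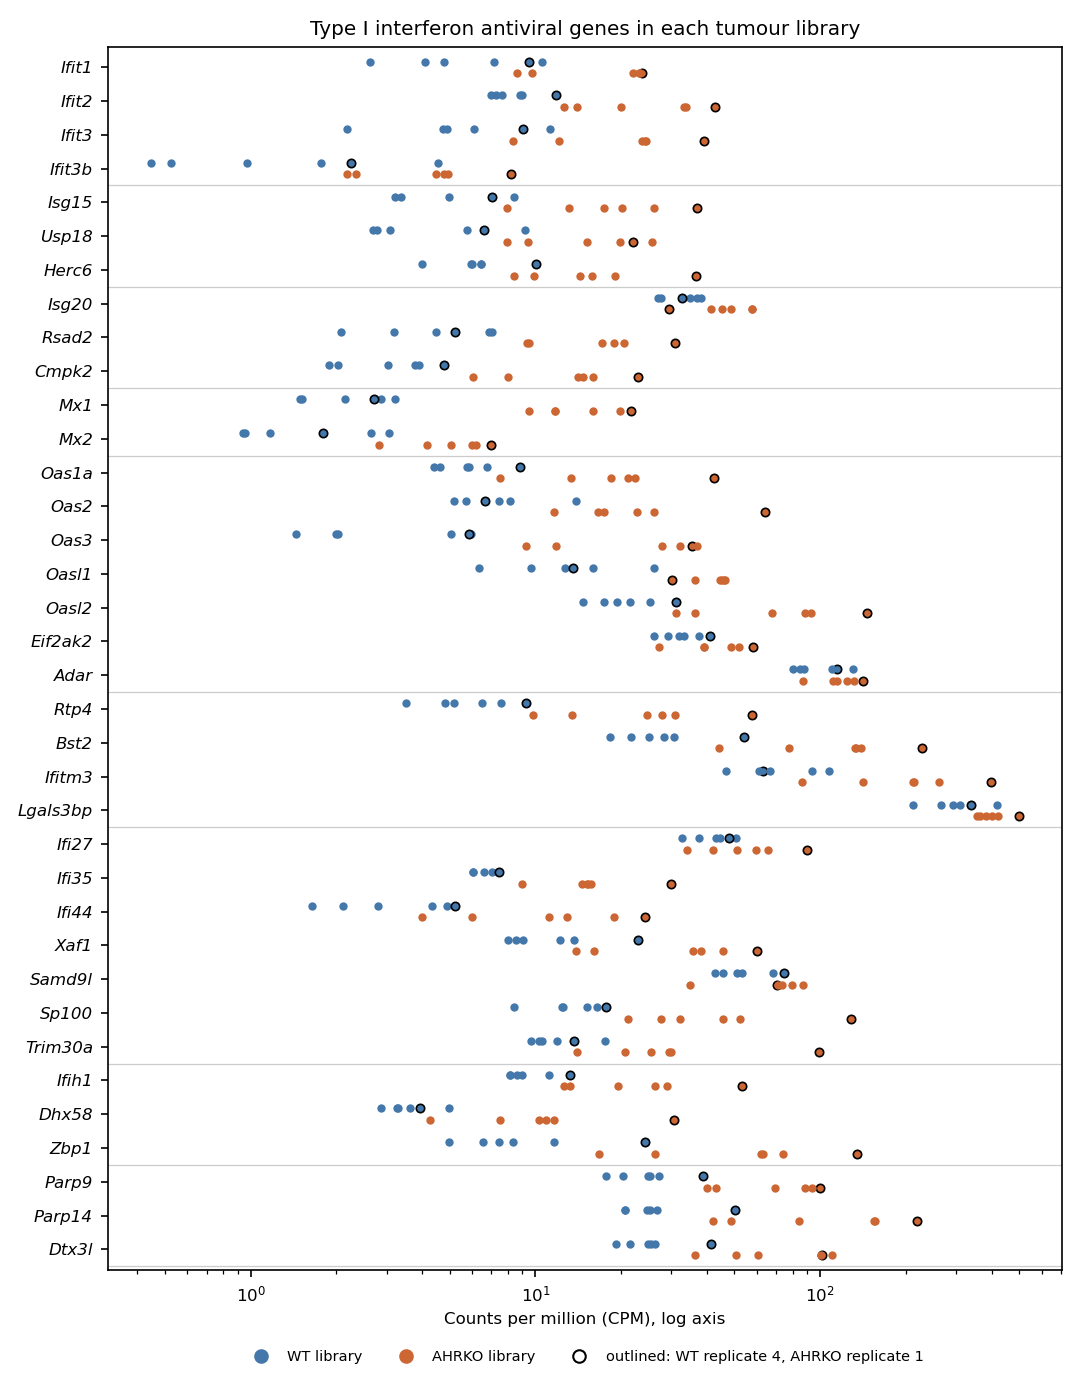
CPM (log axis) of the 36 antiviral genes in each of the 6 WT (blue) and 6 AHRKO (orange) tumour libraries, grouped by role, with WT replicate 4 and AHRKO replicate 1 outlined. The outlined AHRKO library is the highest of its group for 30 genes, and in 11 genes all orange points lie to the right of all blue ones.

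The ISRE was looked for in promoters because it is the element the interferon-activated complex binds. RefSeq promoters (GRCm38.p6, the 250 bases before each start) matched 26 of the 36 genes. The core searched, GAAANNGAAA on either strand with overlapping matches allowed, stood in 9 of these 26 (34.6%) against 3.46% of the 27025 genes of the promoter table. It also stood in 4 of the 8 matched genes (50%) of a list that leans on interferon gamma, so it does not set the antiviral genes apart from that list. The 9 were Ifit1, Ifit3, Ifit3b, Isg15, Oas1a, Oas3, Rsad2, Bst2 and Trim30a, of which all but Ifit3b rose. The core TTCNNNGAA, of the kind used in interferon gamma signalling, stood in 5 of 26 (19.2%) and in 1 of the 8 interferon gamma leaning genes (12.5%), against 8.13% of all genes. The core GCGTG of the aryl hydrocarbon receptor's own element stood in 7 of 26 (26.9%) against 30.9%. In Bst2 the TTCNNNGAA match overlaps the first ISRE match. A match is a run of letters and no measure of binding. The stretches below, 5′ to 3′ along the gene's own strand, are from the 6 holders of the ISRE core with the smallest p, with the core or its reverse complement in capitals.
Oas3: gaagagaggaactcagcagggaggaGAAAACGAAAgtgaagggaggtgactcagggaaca
Bst2: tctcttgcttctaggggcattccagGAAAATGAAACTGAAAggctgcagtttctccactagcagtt
Rsad2: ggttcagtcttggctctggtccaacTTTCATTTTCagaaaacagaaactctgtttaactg
Oas1a: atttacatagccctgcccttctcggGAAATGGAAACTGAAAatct
Isg15: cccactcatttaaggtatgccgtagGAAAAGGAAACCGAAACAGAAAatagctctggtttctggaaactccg
Ifit3: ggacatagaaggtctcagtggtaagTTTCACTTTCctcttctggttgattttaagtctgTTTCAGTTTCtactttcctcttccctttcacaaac
They lie at chr5:120777700-120777759 (minus strand), chr8:71537562-71537627 (minus strand), chr12:26456538-26456597 (minus strand), chr5:120907526-120907570 (minus strand), chr4:156200850-156200921 (minus strand) and chr19:34583348-34583441 (plus strand) (GRCm38), outside annotated exons. Oas3 and Rsad2 hold 1 match each, Bst2 and Oas1a 2 overlapping matches each, and Isg15 3 overlapping matches in a row. Ifit3 holds 2 separate matches, both in the reverse orientation, and the same pair of matched letters stood in Ifit1 and Ifit3b.

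The Mx GTPases, which assemble on viral ribonucleoproteins and block them, both rose. Mx1 (chr16:97447035-97462907, mm10) had the smallest p of the 36 genes. In replicate order it measured 2.86, 1.51, 3.22, 2.71, 1.49 and 2.14 CPM in the WT libraries and 21.7, 15.9, 11.8, 9.52, 11.7 and 19.8 CPM in the AHRKO libraries. Every AHRKO library was above every WT library, and the lowest of them was AHRKO replicate 4. The log2 fold change was 2.70 ± 0.27 (adjusted p = 0.000102), or 6.49-fold. Mx2 lies beside it at chr16:97535308-97560900 and measured 0.943, 1.48 and 3.07 CPM in WT and 2.83, 5.505 and 7.001 CPM in AHRKO. It rose by 1.56 ± 0.34 (adjusted p = 0.00591) on the log2 scale, with 1 AHRKO library below the highest WT library. Many inbred mouse strains carry defective Mx genes, and transcript counts do not show whether the proteins function. The 2 genes share few sequences of 50 bases: 4.37% of those of Mx1 and 4.38% of those of Mx2 occur in another gene.

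The 2′-5′-oligoadenylate synthetases sense double-stranded RNA and make the messenger that activates RNase L, and of 7 genes in this family and its double-stranded RNA partners 5 rose. Oas3, the synthetase that favours long RNA, had the largest fold change of all 36 genes. It lies at chr5:120753098-120777661 and measured 5.93, 2.03, 5.03, 5.83, 1.44 and 2.00 CPM in WT replicates 1 to 6 and 35.5, 27.7, 32.2, 9.29, 11.8 and 37.0 CPM in AHRKO replicates 1 to 6. The groups did not overlap, although both were spread: WT replicates 1, 3 and 4 stood above the other WT libraries, and AHRKO replicates 4 and 5 below the other AHRKO libraries. The log2 fold change of Oas3 was 2.79 ± 0.46 (adjusted p = 0.00144). Oas1a measured 4.42, 5.79 and 8.85 CPM in WT and 7.53, 19.8 and 42.5 CPM in AHRKO, a log2 fold change of 1.79 ± 0.34 (adjusted p = 0.00309). Only AHRKO replicate 5 fell within the WT range, and 57.6% of the 50-base sequences of Oas1a also occur in its neighbour Oas1g, so its count is uncertain. Oas2 measured 5.19, 7.04 and 13.8 CPM in WT and 11.6, 20.0 and 64.0 CPM in AHRKO and rose by 1.75 ± 0.40 (adjusted p = 0.00688) on the log2 scale. Its highest WT library, replicate 3, exceeded its lowest AHRKO library.

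The OAS-like genes are relatives of the synthetases. Oasl1, which holds back Irf7 translation in mice, lies at chr5:114923240-114937915 and measured 26.0, 12.7, 16.0, 13.5, 6.35 and 9.61 CPM in WT replicates 1 to 6. In AHRKO replicates 1 to 6 it measured 30.2, 36.5, 45.9, 44.4, 45.4 and 46.2 CPM. The groups did not overlap, AHRKO replicate 1 was the lowest of its group, and 4 of the 6 AHRKO libraries lay within 44.4 to 46.2 CPM. The log2 fold change of Oasl1 was 1.56 ± 0.27 (adjusted p = 0.00187). Oasl2 measured 14.7, 20.4 and 31.1 CPM in WT and 31.2, 78.2 and 146 CPM in AHRKO, a rise of 1.84 ± 0.35 (adjusted p = 0.00268) on the log2 scale, and its groups only just failed to touch. The remaining pair was not called. Eif2ak2, the kinase PKR that halts translation on double-stranded RNA, measured 26.1, 32.6 and 40.9 CPM in WT and 27.1, 43.9 and 57.9 CPM in AHRKO, a log2 fold change of 0.41 ± 0.17 (adjusted p = 0.0898). Adar, which edits adenosine to inosine in double-stranded RNA, measured 80.4, 98.8 and 130.4 CPM in WT and 86.7, 119.6 and 141 CPM in AHRKO, a log2 fold change of 0.22 ± 0.14 (adjusted p = 0.259). In both, the AHRKO range overlapped most of the WT range. Of the Adar exons 16.8% overlap exons of Chrnb2 on the opposite strand, and the strand setting of the counting was not given.

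The IFIT family binds foreign RNA by its 5′ end and blocks its translation, and 3 of its 4 members rose. The genes stand side by side on chromosome 19, with Ifit2 at chr19:34550694-34576419, Ifit3 at chr19:34583531-34588731, Ifit3b at chr19:34607970-34613401 and Ifit1 at chr19:34640871-34650009. Ifit2 measured 6.99, 8.23 and 11.8 CPM in WT and 12.6, 26.6 and 42.6 CPM in AHRKO and rose by 1.60 ± 0.30 (adjusted p = 0.00247) on the log2 scale. It was the only IFIT gene whose groups did not overlap. Ifit1 measured 2.63, 5.97 and 10.5 CPM in WT and 8.62, 22.5 and 23.7 CPM in AHRKO and rose by 1.52 ± 0.37 (adjusted p = 0.0100). Its AHRKO libraries formed a high set of 4 near 22 to 24 CPM and a low pair, replicates 4 and 5, inside the WT range. Ifit3 measured 2.18, 5.504 and 11.3 CPM in WT and 8.37, 24.0 and 39.2 CPM in AHRKO and rose by 1.79 ± 0.42 (adjusted p = 0.00777), and Ifit3b measured 0.447, 1.37 and 4.54 CPM in WT and 2.19, 4.63 and 8.19 CPM in AHRKO with a log2 fold change of 1.35 ± 0.54 (adjusted p = 0.0743). For both, WT replicate 1 was the highest WT library and overlapped the AHRKO range. Ifit3 and Ifit3b are near copies: 51.2% of the 50-base sequences of Ifit3 occur in Ifit3b, so the split of reads between them is uncertain. Ifit3b was also the only gene of the 36 that did not reach the filter's level of 0.512 CPM in every WT library.

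ISG15 is a ubiquitin-like protein joined to other proteins during an interferon response, and all 3 genes of its pathway here rose. Isg15 measured 3.23, 5.99 and 8.44 CPM in WT and 7.92, 18.8 and 37.0 CPM in AHRKO and rose by 1.84 ± 0.36 (adjusted p = 0.00346) on the log2 scale. Herc6, the ligase that attaches ISG15 in mice, measured 3.99, 6.20 and 10.1 CPM in WT and 8.43, 15.1 and 36.7 CPM in AHRKO and rose by 1.42 ± 0.34 (adjusted p = 0.00892). Usp18, which removes ISG15 and blocks the receptor from inside the cell, measured 2.68, 4.41 and 9.16 CPM in WT and 7.92, 17.5 and 25.6 CPM in AHRKO and rose by 1.73 ± 0.38 (adjusted p = 0.00602). The 3 genes shared a layout in which most AHRKO libraries lay above WT and the lowest AHRKO library, replicate 5, fell inside the WT range. Herc6 shares 13.7% of its exon bases with Gm45193 on the same strand.

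Enzymes that act on nucleotides and RNA followed. Rsad2 encodes viperin, which makes a chain-terminating nucleotide, and Cmpk2, its neighbour in the genome, encodes a nucleotide kinase that feeds it. Cmpk2 (chr12:26469204-26479837) measured 3.78, 2.03, 3.92, 4.76, 1.89 and 3.05 CPM in WT replicates 1 to 6 and 22.8, 16.0, 14.2, 8.03, 6.05 and 14.7 CPM in AHRKO replicates 1 to 6. The groups did not overlap, and AHRKO replicates 4 and 5 were nearest to WT. The log2 fold change was 2.08 ± 0.34 (adjusted p = 0.00127). Rsad2 measured 2.08, 4.85 and 7.06 CPM in WT and 9.33, 18.01 and 31.0 CPM in AHRKO and rose by 1.88 ± 0.36 (adjusted p = 0.00287), again without overlap. Isg20, an exonuclease that degrades RNA, changed least among the 30 called genes. It measured 27.1, 33.8 and 38.1 CPM in WT and 29.4, 46.8 and 57.8 CPM in AHRKO, and its log2 fold change was 0.50 ± 0.16 (adjusted p = 0.0301). AHRKO replicate 1 was its lowest AHRKO library and lay inside the WT range. The Isg20 call was lost when any of WT replicates 4, 5 and 6 or AHRKO replicates 3, 4 and 6 was left out.

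All 3 of the antiviral genes grouped here as nucleic acid sensors rose. Ifih1, which encodes the long double-stranded RNA sensor MDA5, measured 8.11, 8.78 and 13.2 CPM in WT and 12.6, 22.9 and 53.2 CPM in AHRKO and rose by 1.40 ± 0.32 (adjusted p = 0.00747) on the log2 scale. Dhx58, which encodes LGP2, a helper of MDA5, measured 2.88, 3.45 and 4.99 CPM in WT and 4.25, 10.6 and 30.7 CPM in AHRKO and rose by 1.78 ± 0.39 (adjusted p = 0.00580). Zbp1, a sensor of left-handed nucleic acid that can start necroptosis, measured 4.96, 7.87 and 24.2 CPM in WT and 16.7, 62.5 and 135 CPM in AHRKO and rose by 2.58 ± 0.51 (adjusted p = 0.00364). In each the WT and AHRKO ranges overlapped at their ends: for Ifih1 and Zbp1 the WT library above the lowest AHRKO library was replicate 4, and for Dhx58 it was replicate 3. For Dhx58 and Ifih1, AHRKO replicate 1 was far above the rest of its group.

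The genes of the ADP-ribosyltransferases PARP9 and PARP14 and of the ubiquitin ligase DTX3L, the partner of PARP9, all rose. Parp9 (chr16:35938470-35972605) measured 20.3, 25.2, 27.3, 38.8, 17.7 and 24.8 CPM in WT replicates 1 to 6 and 100.0, 93.6, 69.3, 40.0, 43.0 and 88.7 CPM in AHRKO replicates 1 to 6. WT replicate 4 and AHRKO replicate 4 nearly met, but the groups did not overlap, and the log2 fold change was 1.497 ± 0.26 (adjusted p = 0.00177). Dtx3l measured 19.3, 25.1 and 41.3 CPM in WT and 36.4, 80.6 and 110 CPM in AHRKO and rose by 1.54 ± 0.28 (adjusted p = 0.00231). It sits head to head with Parp9, and 458 exon bases of the pair overlap on opposite strands, so a part of their reads cannot be told apart without strand. Parp14 measured 20.6, 24.96 and 50.1 CPM in WT and 42.02, 119 and 219 CPM in AHRKO and rose by 2.07 ± 0.40 (adjusted p = 0.00332). For all 3 the top WT library was replicate 4, and for Parp14 and Dtx3l it overlapped the AHRKO range.

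Of 4 membrane and secreted proteins 3 rose. Bst2 encodes tetherin, which holds budding viruses at the cell surface and in mice also marks plasmacytoid dendritic cells. It lies at chr8:71534255-71537456 and measured 30.8, 25.1, 28.4, 53.9, 18.3 and 21.6 CPM in WT replicates 1 to 6 and 228, 132, 139, 78.0, 44.1 and 134 CPM in AHRKO replicates 1 to 6. Only AHRKO replicate 5 lay below the highest WT library, replicate 4, and the log2 fold change was 2.08 ± 0.36 (adjusted p = 0.00186). Of 6 marker genes of these cells 4 were tested and 2 were called higher, Siglech and Ccr9, while Pacsin1 (adjusted p = 0.157) and Ly6d (adjusted p = 0.184) were not called. Siglech and Ccr9 missed the filter's level of 0.512 CPM in most WT libraries and reached it in every AHRKO library. They passed through the group where they are high, so their calls are a description and support nothing further. The summed level of the 6 was 1.64 to 4.80 CPM in WT, 5.61 to 10.3 CPM in AHRKO replicates 2 to 6 and 41.5 CPM in replicate 1, and its part in the Bst2 result was not tested. Ifitm3, which blocks viral fusion in endosomes, measured 46.7, 64.8 and 107 CPM in WT and 86.0, 213 and 399 CPM in AHRKO and rose by 1.59 ± 0.32 (adjusted p = 0.00408). Rtp4, a Golgi chaperone of receptors, measured 3.52, 5.83 and 9.26 CPM in WT and 9.85, 26.2 and 57.6 CPM in AHRKO and rose by 2.16 ± 0.39 (adjusted p = 0.00229). The Rtp4 groups did not overlap, while 1 AHRKO library of Ifitm3 was within the WT range. Rtp4 shares 13.9% of its exon bases with Gm45338 on the same strand. Lgals3bp, a secreted glycoprotein that binds galectins, measured 212, 302 and 416 CPM in WT and 355, 392 and 497 CPM in AHRKO, a log2 fold change of 0.40 ± 0.15 (adjusted p = 0.0561) that was not called.

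Among the other 7 interferon-induced genes 5 rose. Ifi35 measured 6.03, 6.81 and 7.47 CPM in WT and 8.94, 15.2 and 29.9 CPM in AHRKO, a log2 fold change of 1.29 ± 0.23 (adjusted p = 0.00211). Sp100, a component of PML nuclear bodies, measured 8.40, 13.8 and 17.6 CPM in WT and 21.2, 38.9 and 128 CPM in AHRKO, a log2 fold change of 1.89 ± 0.40 (adjusted p = 0.00464). Neither overlapped between groups, and in both AHRKO replicate 1 was far above the next library. Of the Ifi35 exons 16.8% overlap exons of Gm11626 on the opposite strand. Ifi44 measured 1.64, 3.57 and 5.22 CPM in WT and 3.99, 12.02 and 24.2 CPM in AHRKO and rose by 1.88 ± 0.44 (adjusted p = 0.00803). Xaf1, which promotes cell death, measured 8.00, 10.6 and 23.0 CPM in WT and 13.9, 36.9 and 59.8 CPM in AHRKO and rose by 1.49 ± 0.38 (adjusted p = 0.0114). For Ifi44 1 AHRKO library and for Xaf1 2 AHRKO libraries lay within the WT range. Trim30a, which restrains Toll-like receptor signalling, measured 9.62, 11.2 and 17.6 CPM in WT and 14.0, 27.5 and 99.4 CPM in AHRKO and rose by 1.57 ± 0.41 (adjusted p = 0.0134). Its top value was AHRKO replicate 1, and without that library its log2 fold change was 0.96 (adjusted p = 0.00479). Ifi27 and Samd9l were not called. Ifi27 measured 32.8, 43.8 and 50.8 CPM in WT and 34.0, 55.2 and 90.1 CPM in AHRKO, with a log2 fold change of 0.42 ± 0.20 (adjusted p = 0.142). Samd9l, which restricts translation, measured 42.7, 52.0 and 74.6 CPM in WT and 34.8, 72.4 and 87.1 CPM in AHRKO, with a log2 fold change of 0.31 ± 0.20 (adjusted p = 0.265), and its lowest value of all 12 libraries was in AHRKO replicate 4. The plot of fold changes by role places the smallest changes (Isg20, Eif2ak2, Adar, Lgals3bp, Ifi27 and Samd9l) beside larger changes of genes with like roles.

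**Figure D2:**
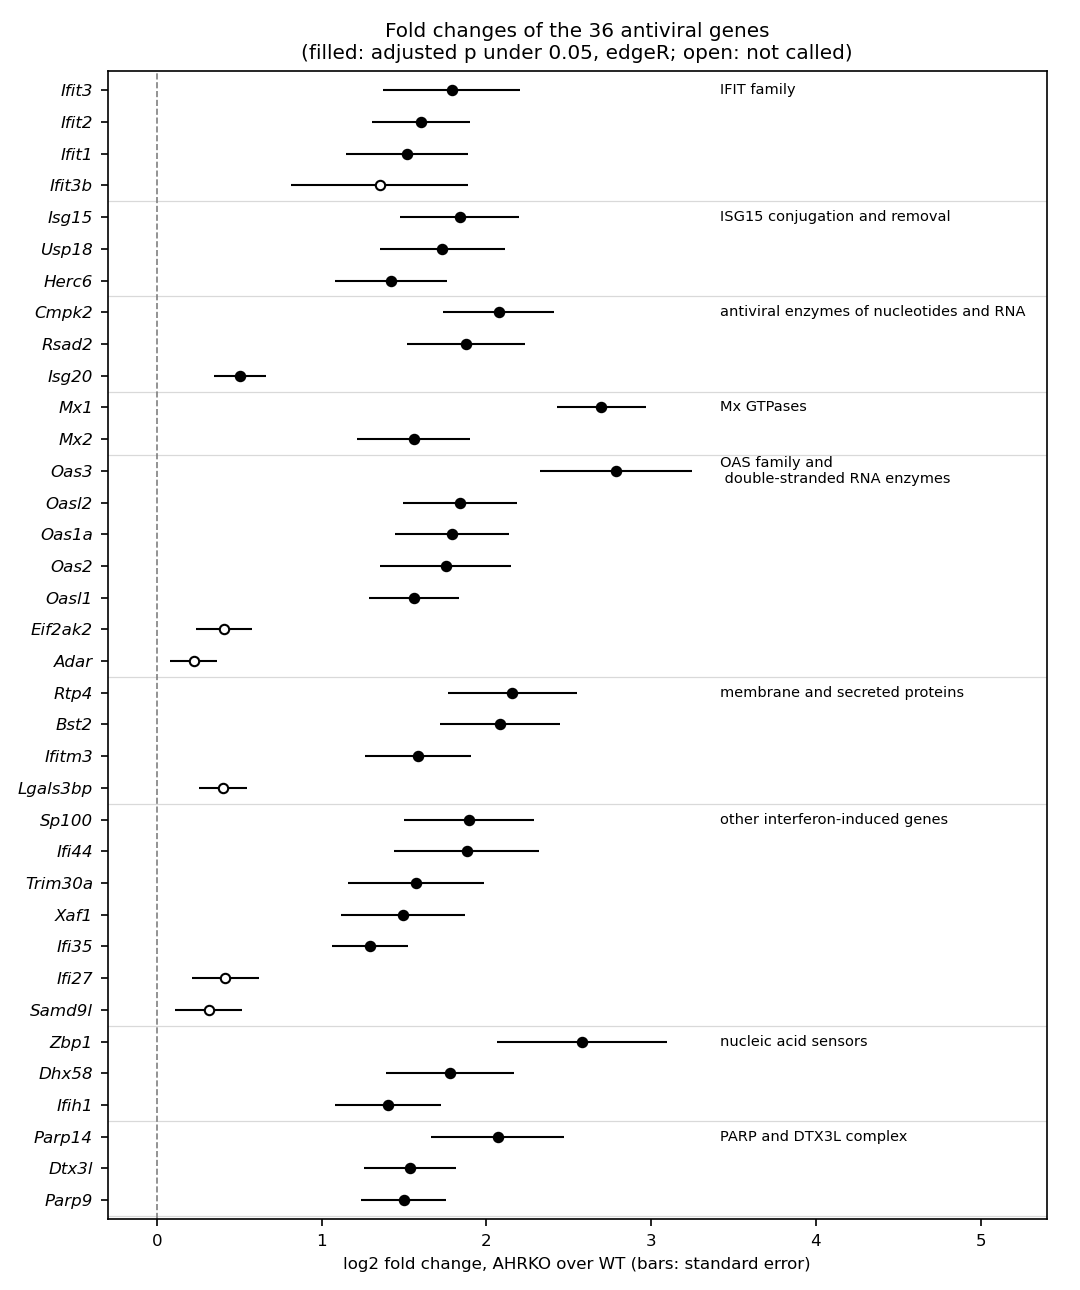
Log2 fold change (AHRKO over WT) with its standard error for each of the 36 antiviral genes, ordered within roles. Filled points (30) passed an adjusted p under 0.05 and open points (6) did not. All points lie right of the dashed line at 0, and Oas3 and Mx1 lie farthest.

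Per length of exon, the genes differed widely in level. The median AHRKO level was 314 CPM per kilobase for Ifitm3, 147 for Bst2 and 138 for Lgals3bp, followed by 37.6 for Ifi27, 25.2 for Isg20 and 24.8 for Isg15. It exceeded 10 CPM per kilobase in 17 of the 36 genes and was lowest for Mx2 at 1.52. In WT the order began with Lgals3bp at 106 CPM per kilobase and Ifitm3 at 95.6, with Isg15 at 7.92. Of the 6 genes not called, Lgals3bp, Ifi27, Adar, Samd9l and Eif2ak2 all stood above 6 CPM per kilobase in WT, and Ifit3b stood at 0.686. Ifitm3 and Bst2, with 95.6 and 29.6 CPM per kilobase in WT, were among the genes that rose.

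The antiviral genes did not rise to the same level in every AHRKO tumour. The mean log2 CPM over the 36 genes was 2.95 to 3.93 in WT and 4.14 to 5.79 in AHRKO, so the groups did not overlap. Its difference was 1.48 with all libraries and 1.32 without AHRKO replicate 1. Within AHRKO it was 5.79 in replicate 1, 5.23 in replicate 6, 5.16 in replicate 2 and 5.03 in replicate 3, and it was 4.32 in replicate 4 and 4.14 in replicate 5. In 29 of the 36 genes replicates 2, 3 and 6 all exceeded both replicates 4 and 5. AHRKO replicate 5 was the lowest of its group for 23 genes and replicate 4 for 11. Isg20 and Oasl1 were the other 2, with their minimum in replicate 1.

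WT tumours also differed. WT replicate 4 had the highest mean log2 CPM at 3.93, and it was the top WT library for 18 genes, against 11 for replicate 1 and 7 for replicate 3. In 20 genes WT replicate 4 exceeded 1.5 times the median of the other WT libraries, with 3.25 times for Zbp1, 2.88 for Oas3 and 2.54 for Xaf1. WT replicate 1 exceeded 1.5 times in 10 genes, with 4.67 times for Ifit3b, 2.96 for Usp18, 2.92 for Oas3 and 2.62 for Mx2. WT replicate 5 was the lowest WT library for 23 genes. Left out in turn, WT replicate 4 raised the number of genes whose groups did not overlap from 11 to 19, and AHRKO replicate 5 raised it to 22. Such a number can hardly fall when a library is left out. The share of all tested genes without overlap in these comparisons is not given here. The rises are therefore not read as particular to the antiviral genes.

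**Figure D3:**
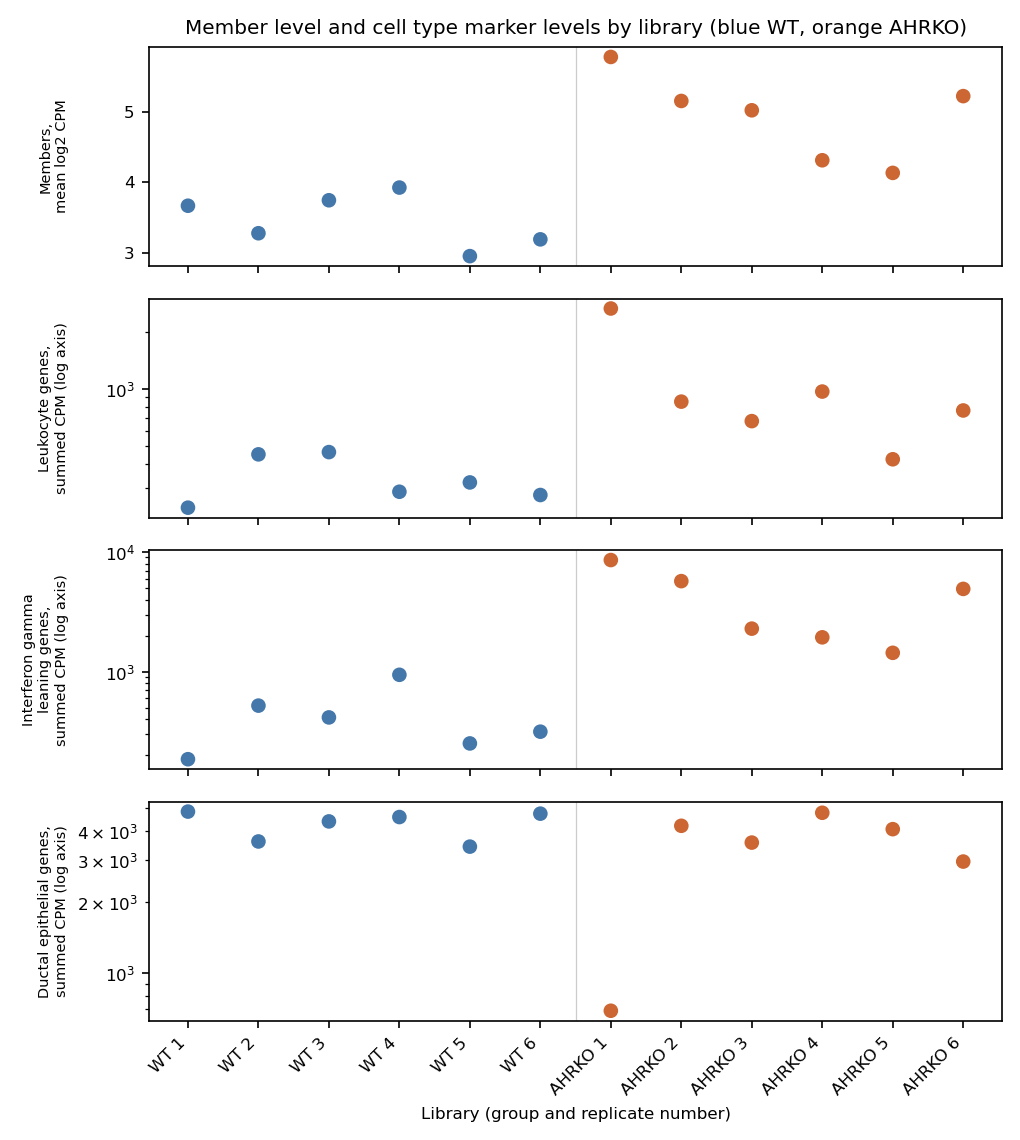
Mean log2 CPM of the 36 antiviral genes (top) and summed CPM of leukocyte, interferon gamma leaning and ductal epithelial genes (log axes) in each library, WT in blue and AHRKO in orange. The antiviral level is 2.95 to 3.93 in WT and 4.14 to 5.79 in AHRKO, and AHRKO replicate 1 has the highest leukocyte and the lowest ductal sum.

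Leukocyte markers moved with the antiviral genes between the groups. Beside 15.9% of all tested genes called higher, all 14 leukocyte genes rose, with a median log2 fold change of 1.63. So did 8 of 8 T cell genes (summed 3.53 to 18.3 CPM in WT and 16.9 to 229 CPM in AHRKO) and 8 of 9 macrophage genes (691 to 1573 CPM and 936 to 6878 CPM). Of the T cell genes only Cd4 and Lck reached the filter's level of 0.512 CPM in every WT library. Cd3d, Cd3e, Cd3g, Cd2, Cd8a and Cd8b1 passed only with the AHRKO libraries, where they are high, so their calls are a description. None of 8 ductal epithelial, 6 fibroblast or 5 endothelial genes was called. The median log2 fold change was -0.43 over the ductal genes, of which 1 was positive, and 0.73 over the endothelial genes, of which all 5 were positive. For Krt19 every AHRKO library lay below every WT library (adjusted p = 0.0695), a pattern found in 7.35% of all tested genes. Its groups nearly met, at 561 CPM in AHRKO and 565.5 CPM in WT. For Sox9, the 1 positive gene, 5 AHRKO libraries lay above every WT library (adjusted p = 0.391). The leukocyte sum and the antiviral level agreed at the ends of the AHRKO group and differed in between. AHRKO replicate 1 was highest in both and replicate 5, with a leukocyte sum of 423 CPM, lowest in both. AHRKO replicate 4 had the second highest leukocyte sum of its group, 964 CPM, and the second lowest antiviral level. WT replicate 4 had the highest antiviral level of WT with a leukocyte sum of 285 CPM, below WT replicates 2 and 3 at 449.5 and 462 CPM.

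With the mean log2 CPM of the leukocyte genes added to the fit, 5 of the 36 genes were still called higher: Isg20, Mx1, Oas3, Oasl1 and Cmpk2. The share of all tested genes called in this fit is not given here. The drop from 30 to 5 is therefore not read as particular to these genes. The fitted change stayed positive for 34 of the 36, with a median of 0.92 over the 36 and 0.0045 over all tested genes. Mx1 changed from 2.70 to 2.33 ± 0.36, Oas3 from 2.79 to 2.47 ± 0.68 and Oasl1 from 1.56 to 1.98 ± 0.37, while Oas2 changed from 1.75 to 0.29 ± 0.27 and Trim30a from 1.57 to -0.07 ± 0.24. The leukocyte level itself differs between the groups, so this fit shares 1 difference between both terms, and the part of cell composition in the rises was not tested beyond it.

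In AHRKO replicate 1 the antiviral genes exceeded the rest of their group by less than the leukocyte genes did. Its CPM over the median of the other 5 AHRKO libraries had a median of 1.82 over the 36 genes and 3.60 over the leukocyte genes, whose lowest value was 2.86. The ratio ran from 0.607 for Isg20 to 3.98 for Sp100, with Trim30a at 3.89 and Oas2 at 3.68. It was above 2 in 14 genes and at most 1.2 in 4: Isg20, Oasl1, Samd9l and Ifit1. T cell genes had a median ratio of 5.64, fibroblast genes 3.85 and ductal epithelial genes 0.172. These ratios rest on 1 library and carry no test.

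**Figure D4:**
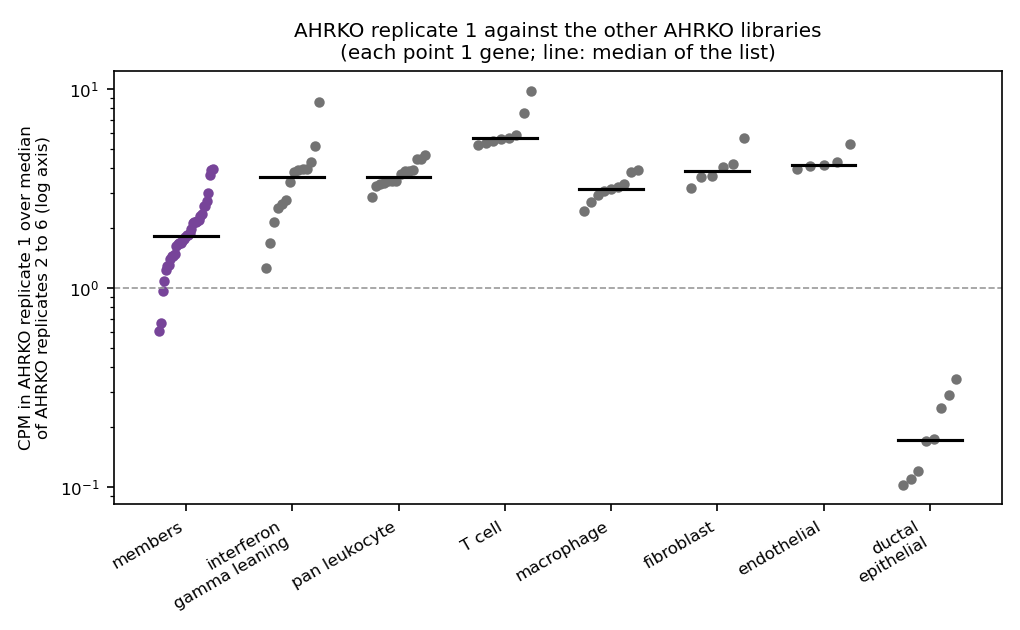
CPM in AHRKO replicate 1 divided by the median of AHRKO replicates 2 to 6 (log axis), 1 point per gene, for the antiviral genes and marker lists, with the list median as a line. The antiviral genes spread from 0.607 to 3.98 around a median of 1.82, leukocyte genes lie between 2.86 and 4.66, and ductal genes lie between 0.1025 and 0.349.

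Interferon ligands were barely counted. Of 21 ligand genes 1 passed the filter, the epithelial interferon Ifne (chr4:88879538-88880201), and it was lower in AHRKO. Ifne measured 0.882, 0.857, 0.652, 1.48, 1.34 and 0.904 CPM in WT replicates 1 to 6. In AHRKO it was at 0 in 5 libraries and at 0.0484 CPM in replicate 2. In raw counts that was 140 against 1, and the ratio of WT over AHRKO scaled for depth was 102 with an exact 95% interval of 18.03 to 4062 that covers counting error only. Ifne passed the filter through the WT libraries alone, the group where it is high, so its fitted log2 fold change of -6.01 and its call are a description and support nothing further. Its direction was opposite to that of the antiviral genes. The 17 other type I ligands together held 24 counts in WT and 16 in AHRKO, with at most 4 in a library. Those with any count were Ifnb1, Ifna4, Ifna7, Ifna11, Ifna14, Ifna16, Ifnab, Ifnz and Ifnk. A count of 0 allows up to 3 counts, or 0.0836 to 0.203 CPM depending on the library, so a difference in these ligands was not detectable at this depth. The Ifna genes are also near copies of each other, and the treatment of reads with several matches was not given. Ifng, the type II ligand, did not pass the filter and was at 0 to 0.716 CPM in WT and 0.0644 to 4.63 CPM in AHRKO, with the WT maximum in replicate 4 and the AHRKO maximum in replicate 1.

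Beside 15.9% of all tested genes called higher, 3 of 9 receptor and kinase genes rose. They were Ifnar2, a chain of the type I receptor, with 22.5 to 30.6 CPM in WT and 33.3 to 78.5 CPM in AHRKO and a log2 fold change of 0.77 ± 0.19 (adjusted p = 0.00948), and 2 chains of other receptors. Ifngr2 of the interferon gamma receptor changed by 0.56 ± 0.09 (adjusted p = 0.00117) and Il10rb, shared by interferon lambda and interleukin 10 receptors, by 0.68 ± 0.16 (adjusted p = 0.00755). The 3 genes lie close together on chromosome 16, and for each of them every AHRKO library was above every WT library. The partner chain Ifnar1, which lies between Il10rb and Ifngr2, was not called and had a log2 fold change of 0.16 ± 0.11 (adjusted p = 0.290), and the kinases Jak1 and Tyk2 had 0.06 ± 0.19 and -0.07 ± 0.16.

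Transcription factors of the response moved with the antiviral genes, with 6 of 7 called higher, beside 15.9% of all tested genes. Of the ISRE-binding complex, Stat2 measured 32.0, 36.8 and 48.7 CPM in WT and 44.5, 80.0 and 175 CPM in AHRKO and rose by 1.19 ± 0.29 (adjusted p = 0.00992) on the log2 scale. Irf9 measured 34.2, 36.3 and 49.4 CPM in WT and 44.2, 67.4 and 92.7 CPM in AHRKO and rose by 0.73 ± 0.17 (adjusted p = 0.00713). For both, WT replicate 4 was the highest WT library and overlapped the AHRKO range. Irf7, which amplifies type I ligands and is itself interferon-induced, measured 6.30, 12.8 and 15.1 CPM in WT and 17.2, 50.1 and 106 CPM in AHRKO and rose by 2.19 ± 0.39 (adjusted p = 0.00208). Its groups did not overlap. Irf1, induced strongly by interferon gamma, rose by 1.89 ± 0.35 (adjusted p = 0.00254). Irf8 and Irf5, expressed mostly in myeloid and B cells, rose by 2.10 ± 0.31 (adjusted p = 0.000846) and 1.77 ± 0.38 (adjusted p = 0.00546). Irf3, which is activated without new transcription, had a log2 fold change of 0.28 ± 0.11 (adjusted p = 0.0606).

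Of 14 genes of nucleic acid sensing 3 rose, beside 15.9% of all tested genes called higher. This count is not read as a result about the list. Rigi, the receptor RIG-I, rose by 1.00 ± 0.25 (adjusted p = 0.0104), the DNA receptor gene Tlr9 by 2.31 ± 0.50 (adjusted p = 0.00573) and its adaptor Myd88 by 0.43 ± 0.13 (adjusted p = 0.0303). The adaptor Mavs downstream of RIG-I and MDA5 had 0.18 ± 0.09 (adjusted p = 0.168), and the DNA sensor Cgas 0.60 ± 0.33 (adjusted p = 0.195). Of 7 tested inhibitors 4 rose. Socs1, which blocks JAK kinases and is induced by interferons, measured 9.16, 10.6 and 15.6 CPM in WT and 11.1, 53.0 and 99.7 CPM in AHRKO and rose by 2.22 ± 0.38 (adjusted p = 0.00175). The phosphatases Ptpn6 and Ptpn2 rose by 1.29 ± 0.26 (adjusted p = 0.00410) and 0.50 ± 0.15 (adjusted p = 0.0222), and Samhd1, which depletes nucleotides, by 1.57 ± 0.32 (adjusted p = 0.00423). Trex1 was listed at 0 in all 12 libraries, which is not read as absence because the annotation used for counting was not given. Across the ligand, receptor, factor, sensing and inhibitor lists, 16 of 38 tested genes rose and 1, Ifne, was called lower. Over all tested genes 15.9% were called higher and 13.6% lower. The median log2 fold change of the 38 was 0.46, beside 1.59 for the 36 antiviral genes.

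**Figure D5:**
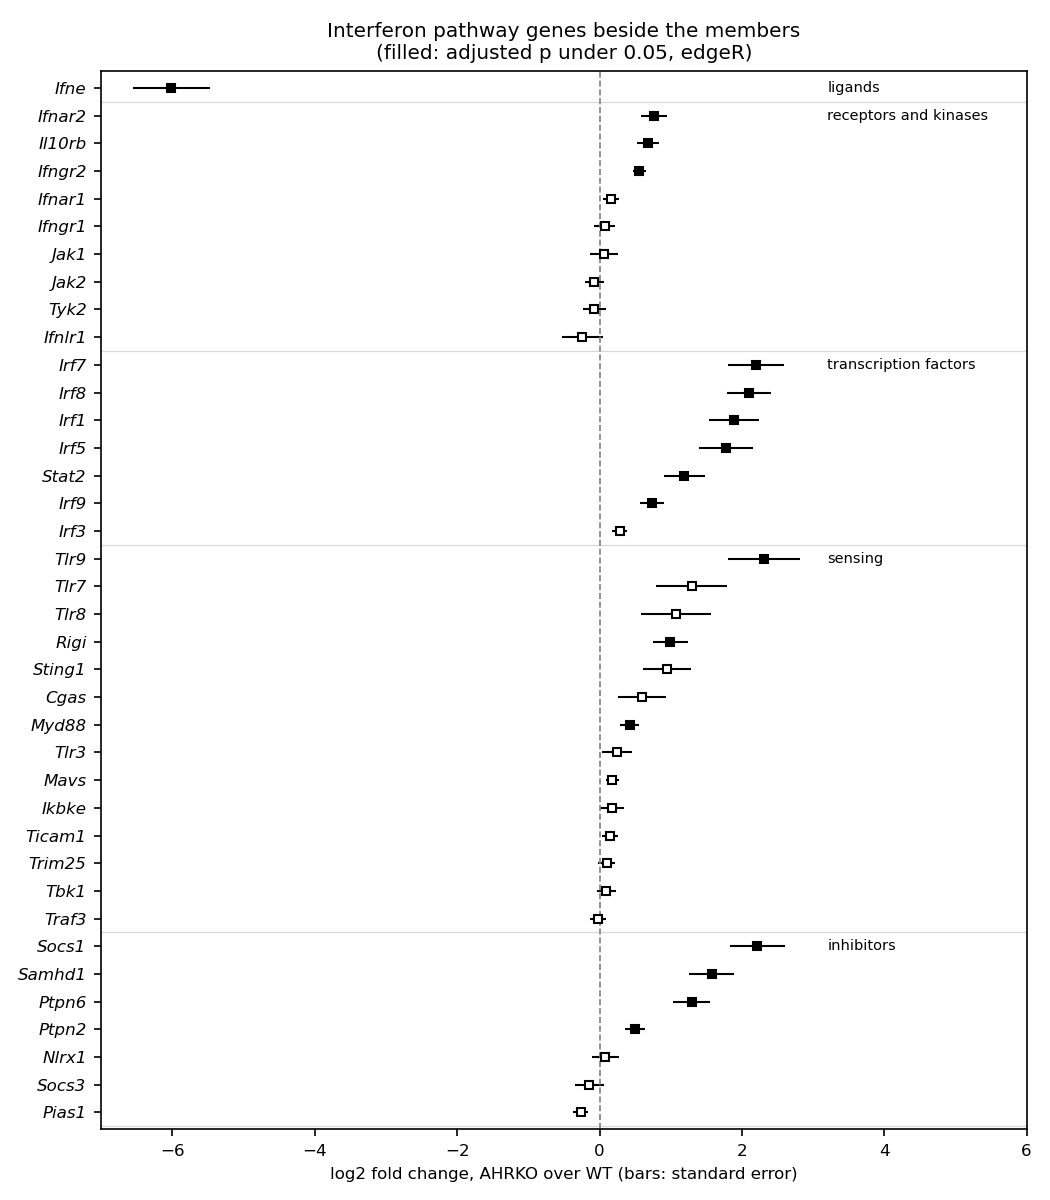
Log2 fold change (AHRKO over WT) with its standard error for 38 tested genes of the interferon pathway outside the 36 antiviral genes, by list. Filled points passed an adjusted p under 0.05. Ifne lies far left at -6.01, and the transcription factors hold 6 filled points of 7.

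Of 14 genes that lean on interferon gamma 12 rose, beside 15.9% of all tested genes called higher. They were Cxcl9, Ciita, Gbp2, Gbp3, Gbp4, Irgm1, Igtp, Cd74, H2-Aa, H2-Ab1, H2-Eb1 and Cd274. Ido1 (adjusted p = 0.0557) and Nos2 (adjusted p = 0.103) were not called. The median log2 fold change of the 14 was 3.22, beside 1.59 for the antiviral genes. The summed level of the 14 was 185 to 939 CPM in WT and 1434 to 8567 CPM in AHRKO. The chemokine gene Cxcl9 rose by 4.72 ± 1.06 (adjusted p = 0.00652) on the log2 scale, and Ciita, the master regulator of MHC class II, by 3.59 ± 0.64 (adjusted p = 0.00212). The difference between the lists was not tested, nor was the part of cell composition in it. WT replicate 4 stood out in both lists. Over the median of the other WT libraries its median log2 ratio was 2.14 for the interferon gamma leaning genes and 0.62 for the antiviral genes. In WT replicate 1 the same ratios were -0.41 and 0.23. Of the 10 antiviral genes above 1.5 times in WT replicate 1, all but 2 (Oasl1 and Rsad2) were above 1.5 times in WT replicate 4 too.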

How the data were processed

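RNA was read from 12 tumour samples, 6 per group; poly-T beads captured the mRNA per the labels' protocols. The growth and treatment texts of the labels describe cultured cells with compounds, but the RNA protocol names tumours. The deposited values are raw counts, made by the authors with HISAT2, SAMtools and HTSeq on mm10 and compared with DESeq2, per the submitters' processing notes. Annotation, strand setting and versions: not given in the sources used here. Symbols came from GENCODE M21 and matched 42548 of 43432 identifiers. Totals ran from 14772343 to 35881469 counts. Reads carry no molecular identifiers, so intervals cover counting error only.

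Genes kept by filterByExpr (15449) were scaled by TMM and tested with edgeR 4.0.16 in R 4.3.3 (quasi-likelihood, two-sided, Benjamini-Hochberg over all tested genes, threshold 0.05). A standard error is the log2 fold change over the root of F. Log2 CPM used a prior count of 2. The script was tested on simulated data. Alternatives were DESeq2 1.42.0, limma 3.58.1 (voom with sample quality weights), other scalings and filters, a replicate block, a leukocyte covariate and leaving out each library. No pair of libraries in a group agreed within sampling noise (lowest chi-square per degree of freedom 13.7). The antiviral genes and the other lists were chosen with earlier results of these data known, so no p is given for a list; 1 listed gene is not reported here. All 36 genes are reported, with every library for the 6 smallest p; pathway genes are named if called, as ligands with any count, or as partners of these.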

Additional observations from a re-analysis of the deposited data

Results flagged for a closer look

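Of 72 sets of 6 libraries (36 genes in 2 groups), 12 held a library that stood apart. Its gap to the next, as a share of the whole range, was above Dixon's 95% limit for 6 values. For independent, normally distributed values chance flags about 1 set in 20. The gaps were taken in CPM without a log, and the 72 sets share the same 12 libraries, so that rate may not hold here. AHRKO replicate 1 held 6 of the 12. Sp100 was at 128 CPM there against 52.3 in the next library, Trim30a at 99.4 against 29.9, Oas2 at 64.0 against 26.0, Herc6 at 36.7 against 19.0, Dhx58 at 30.7 against 11.6 and Ifi35 at 29.9 against 15.7. Its leukocyte sum was 2647 CPM, and the part of that in these values was not tested. WT replicate 4 held another 4, with Bst2 at 53.9 CPM against 30.8, Parp14 at 50.1 against 26.8, Dtx3l at 41.3 against 26.4 and Zbp1 at 24.2 against 11.7. The last 2 were Oas2 in WT replicate 3, at 13.8 CPM against 8.11, and Samd9l in AHRKO replicate 4, the only low value, at 34.8 CPM against 70.5 in the next library above.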

How the results depend on the processing

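The number of antiviral genes called higher, 30, was 32 with DESeq2, 33 with limma-voom and sample quality weights, 30 with RLE or upper-quartile scaling or a stricter filter, 29 without a filter and 29 to 32 when 1 library was left out; none was called lower in any of these. Leaving out 1 library gave 11 to 22 genes whose groups did not overlap, a level difference of 1.32 to 1.65 log2, and 1822 to 2980 genes higher and 1632 to 2778 lower over the whole table. The count of genes without overlap can hardly fall when a library is left out, so its low end of 11 carries no information. Its high end of 22 is given without the share of all tested genes, so it is not read as particular to these genes. With the replicate block 26 antiviral genes were called (Isg20, Ifih1, Xaf1, Herc6 and Trim30a lost, Ifit3b gained), and 1114 genes higher and 1240 lower over the table. Same-numbered libraries correlated from -0.47 to 0.03 and none best with its own number, so no pairing by number was seen. Such correlations cannot exclude a pairing, which the labels do not state. With the leukocyte score as a covariate 5 were called, and Ifi27 (-0.25) and Trim30a (-0.071) turned negative. The cause was not tested, and the share of all tested genes called in this fit is not given here. Calls gained were Ifit3b and Lgals3bp without WT replicate 1, Samd9l and Eif2ak2 without AHRKO replicate 4 and Ifi27 without AHRKO replicate 5. Ifit3b and Lgals3bp were also called with DESeq2 and with limma-voom, and Eif2ak2 with limma-voom. At this depth most ligands were at or near 0.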

Other observations

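Ifne lies on chromosome 4 near Cdkn2a and Cdkn2b, which encode inhibitors of cell cycle kinases, and its neighbours were looked up after its values were seen. Cdkn2a (chr4:89274471-89294653) measured 75.9 to 114 CPM in WT and 0.515 to 6.82 CPM in AHRKO, and its log2 fold change fell by 5.47 ± 0.50 (adjusted p = 5.57e-05, edgeR). Cdkn2b measured 26.5 to 47.7 CPM in WT and 1.48 to 10.4 CPM in AHRKO and fell by 3.06 ± 0.41 (adjusted p = 0.000433). Between them and Ifne, Mtap measured 226 to 378 CPM in WT and 96.1 to 379 CPM in AHRKO, with a log2 fold change of -0.05 ± 0.26 (adjusted p = 0.912), while the noncoding genes Gm12602 and Wincr1 fell by 1.49 ± 0.31 (adjusted p = 0.00453) and 1.10 ± 0.28 (adjusted p = 0.0128). On the far side of Ifne, Klhl9 fell by 0.31 ± 0.08 (adjusted p = 0.0116) and Focad by 0.58 ± 0.14 (adjusted p = 0.00984), while Hacd4, Mllt3 and Mrpl48-ps were not called, with log2 fold changes of 0.54 ± 0.28, -0.29 ± 0.17 and 0.32 ± 0.34. Beyond Cdkn2b, Dmrta1 measured 0.886 to 2.46 CPM in WT and 0.0570 to 0.890 CPM in AHRKO. It passed the filter through the WT libraries, where it is high, so no test is given. AHRKO replicate 1, the library with the fewest ductal markers, had the highest Cdkn2a of its group at 6.82 CPM and the lowest Mtap at 96.1 CPM.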
